A study of Sus scrofa with 6 samples.

Results

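The 10 genes described here code for transporters and channels of the intestinal epithelium, followed in the piglet ileum from birth to day 21: the sugar carriers SLC5A1, SLC2A2 and SLC2A5, the peptide carrier SLC15A1, the amino acid carriers SLC6A19, SLC7A9 and SLC3A1, and the ion transporters SLC26A3, SLC9A3 and CFTR. They were taken by gene symbol, and all 10 were found among the 20648 genes of the count tables. Single-cell RNA sequencing (10x Genomics, 3′ end) had been run on ileal mucosa of male Large White piglets raised on sow milk, with no treatment, at days 0, 1, 3, 7, 14 and 21 of age. Each age gave 1 library, so no age was tested against another. The study used several piglets at each age, but the sources read here do not say how their cells were pooled. Each library held 77391932 to 100348769 unique molecular identifiers (UMIs, counted RNA molecules), and 10836 to 15956 barcodes with at least 1000 UMIs and 500 genes were kept as cells, 76099 in all. Any pair of libraries shared 31 to 68 of these barcodes, at most 0.508% of the smaller library.

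The small intestine takes up the products of digestion through carriers in the brush border of its absorptive cells, the enterocytes, which are born in the crypts and mature as they move up the villus. Sodium-driven carriers such as SLC5A1 and SLC6A19 work beside proton-driven SLC15A1 and exchangers such as SLC7A9, and the paired exchangers SLC26A3 and SLC9A3 bring in chloride and sodium. CFTR works in the opposite direction: it is the apical chloride channel of fluid secretion, long known to be most abundant in crypts.

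Epithelial cells were those with at least 5 UMIs of EPCAM, KRT8 and VIL1 together and at most 1 UMI of the leukocyte gene PTPRC. The gate took 4054 of the 76099 cells, and their number was very uneven: 2741 at day 0, 1002 at day 1, 90 at day 3, 192 at day 7, 28 at day 14 and 1 at day 21. B cells, defined by their own markers, made up 17.1% of all cells at day 0 and 89.4% at day 21. The epithelial label held against genes that the gate did not use: at least 6 of 7 further epithelial genes (CDH1, KRT18, KRT19, KRT20, CLDN7, CLDN3 and ELF3) were detected at every age through day 14, at a summed 28.3 to 70.0 per 10000 UMIs. B cell markers in the same cells summed to 0.168 to 1.44 per 10000. The single cell of day 21 held no UMI of any of the 10 genes but all 5 tuft cell markers, so values below stop at day 14.

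The makeup of the epithelial cells also differed with age. Enteroendocrine markers summed to 97.7, 37.5, 85.5, 98.0 and 0.168 per 10000 UMIs at days 0, 1, 3, 7 and 14, and goblet markers to 158, 98.3, 190, 10.2 and 1.79. A narrower class was therefore set, after the data had been seen, from brush-border and lipid-handling genes (LCT, ANPEP, DPP4, MEP1A, APOA1, APOA4, APOB, FABP1, FABP2, FABP6, RBP2, MTTP, CDHR5 and MYO1A, none of them a transporter of the set). OLFM4-low cells (those with 0 or 1 UMI of OLFM4, a marker of crypt stem cells) with at least 100 per 10000 UMIs of this list and below the enteroendocrine and goblet limits are called villus-list cells here; there were 644, 537, 1, 86 and 27 of them at days 0, 1, 3, 7 and 14. The class is a range cut from a score and not a cell type, and 298 of 1352 non-secretory OLFM4-low cells (22.0%) at day 0 and 83 of 687 (12.1%) at day 1 lay between 80 and 125 per 10000. A level below is the number of a gene's UMIs in every 10000 that the class held in all. All intervals are exact at 95% (Poisson for levels, conditional for ratios, Clopper-Pearson for shares) and cover counting error only, not the difference between piglets.

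Together the 10 genes made up 4.11, 7.90, 0.783, 9.97 and 21.6 per 10000 UMIs of the epithelial cells at days 0, 1, 3, 7 and 14, a ratio of 2.42 (2.29 to 2.57) between days 7 and 0. In villus-list cells the sum was 7.46, 11.2, 14.7 and 22.0 at days 0, 1, 7 and 14, and the ratio of day 7 to day 0 was smaller, at 1.98 (1.86 to 2.10). Within this class, the intervals of the day 7 to day 0 ratio lay above 1 for 7 of the 10 genes, below 1 for none, and included 1 for SLC2A2, SLC2A5 and SLC26A3. Between days 14 and 7 they lay above 1 for 6 genes and below 1 for CFTR. These counts were made for the 10 genes only. The share of all genes with such intervals was not computed, so the counts are a description. Scaling by trimmed means (TMM) in place of total UMIs multiplied the day 7 to day 0 ratios by 0.806 in villus-list cells and by 0.807 in all epithelial cells. With it, the same 7 genes stayed above 1 in villus-list cells, SLC26A3 came to lie below 1 (0.777, 0.645 to 0.930) and SLC2A5 went from 1.05 to 0.842 with an interval that included 1 both times. Among all epithelial cells, TMM scaling took SLC26A3 and SLC2A2 across 1, the CFTR interval came to include 1 and that of SLC2A5 came to lie below 1. The class itself was not the same at each age: its villus-list genes summed to 191, 286, 371 and 428 per 10000 at days 0, 1, 7 and 14, and the part of this in the age ratios was not tested. The plot of levels by age shows every gene in both classes.

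**Figure D1:**
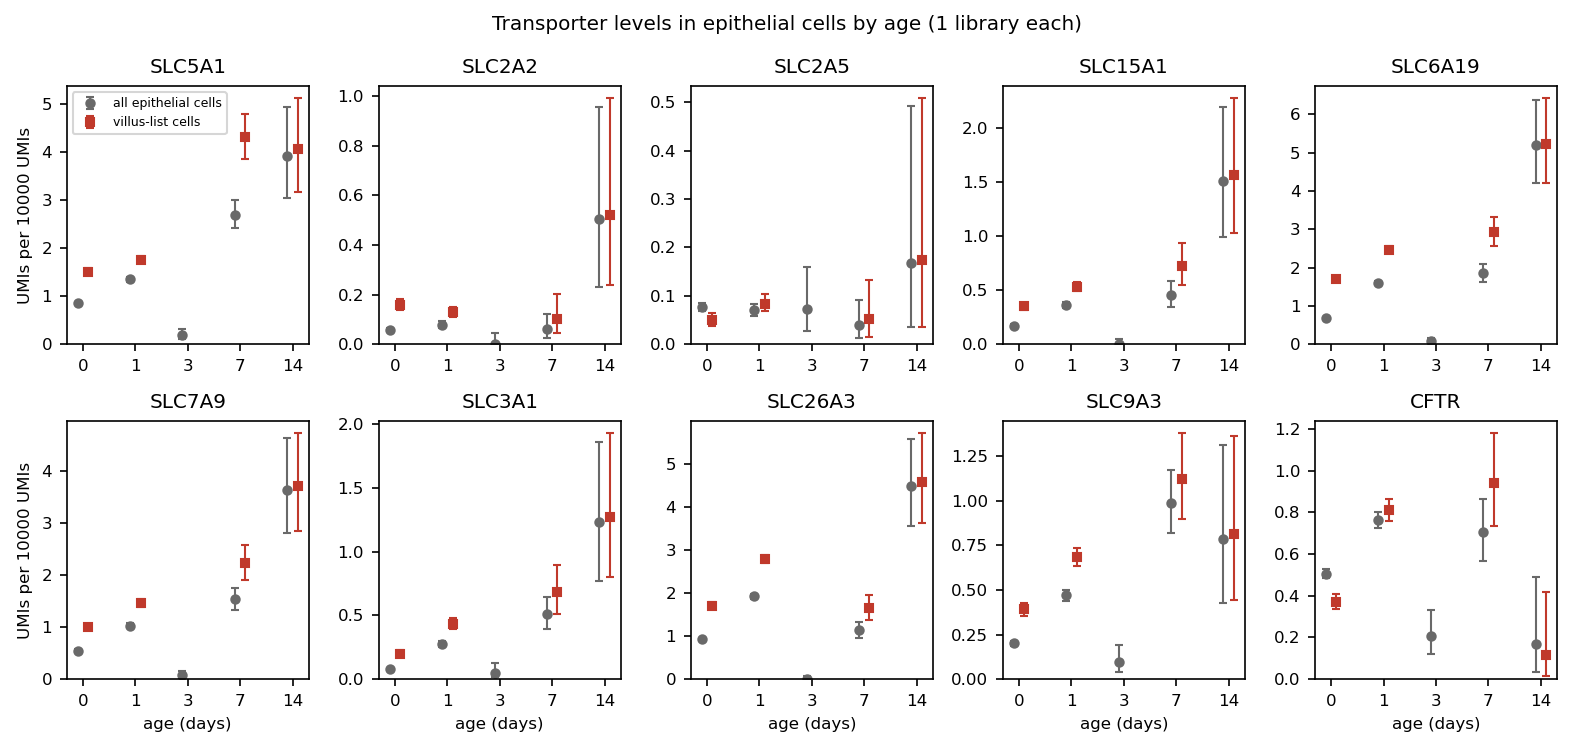
UMIs per 10000 UMIs of the 10 transporter genes by age in days, in all epithelial cells and in villus-list cells, with 1 library per age; bars are exact 95% Poisson intervals, the vertical scale differs between genes, and the 1 villus-list cell of day 3 is not drawn. Day 3, with 90 epithelial cells, is the lowest epithelial point for 8 genes, and CFTR is the gene whose day 14 level lies below its day 0 level in both classes.

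SLC5A1 (SGLT1, chromosome 14, 48566400–48704145 of Sscrofa11.1) couples glucose and galactose uptake to sodium at the brush border. Its epithelial level was 0.856, 1.35, 0.196, 2.70 and 3.92 per 10000 UMIs at days 0, 1, 3, 7 and 14. In villus-list cells it was 1.51 (1.44 to 1.59) at day 0, 1.76 (1.68 to 1.84) at day 1, 4.31 (3.86 to 4.80) at day 7 and 4.06 (3.16 to 5.13) at day 14. Over all cells of the class, the levels thus fell into a lower pair, days 0 and 1, and a higher pair, days 7 and 14. Day 7 over day 0 was 2.85-fold (2.53 to 3.21), while day 14 over day 7 was 0.941 (0.717 to 1.22). The villus-list genes of the class summed to 191 per 10000 at day 0 and 371 at day 7. The day 0 cells highest in that list, described below, had an SLC5A1 interval that overlapped those of days 7 and 14. The day 1 cells highest in the list did not. The part of the list share in these pairs was not tested. With each cell thinned to 1000 UMIs, 6.20% of epithelial cells held an SLC5A1 UMI at day 0, 11.4% at day 1, 2.22% at day 3, 13.5% at day 7 and 39.3% (21.5 to 59.4) at day 14. The unthinned shares were 39.7%, 60.1%, 14.4%, 37.5% and 82.1%, at median depths of 9776, 16276.5, 8213.5, 5155 and 6015.5 UMIs. In B cells, which should lack the gene, the thinned shares were 0.162%, 0.307%, 0.0533%, 0.0816% and 0.028%, at median depths of 3491 to 4821 UMIs.

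SLC2A2 (GLUT2, chromosome 13, 109592595–109614105), the basolateral exit route of hexoses, was sparse. Its level in villus-list cells was 0.158 (0.136 to 0.183), 0.128 (0.108 to 0.151), 0.103 (0.0445 to 0.203) and 0.522 (0.239 to 0.991) per 10000 at days 0, 1, 7 and 14. The neighbouring ages from day 0 to day 7 overlapped in their intervals, although with TMM scaling day 1 lay below day 0 (0.717, 0.572 to 0.898), and day 14, with 9 UMIs, stood at 3.30-fold (1.49 to 6.40) the day 0 level. SLC2A5 (GLUT5, chromosome 6, 69507829–69535794), the fructose carrier, gave 0.0492, 0.0839, 0.0515 and 0.174 per 10000 in the same cells, from 57, 93, 4 and 3 UMIs. Only day 1 over day 0, at 1.70-fold (1.21 to 2.41), had an interval apart from 1 among the comparisons of SLC2A5 with day 0 in villus-list cells.

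SLC15A1 (PEPT1, chromosome 11, 67652808–67690457) takes up di- and tripeptides together with protons. In villus-list cells it stood at 0.351 (0.317 to 0.387), 0.534 (0.492 to 0.579), 0.721 (0.544 to 0.936) and 1.57 (1.03 to 2.28) per 10000 at days 0, 1, 7 and 14, so that each sampled age was above the one before. Day 14 over day 0 was 4.46-fold (2.91 to 6.59), and the step from day 1 to day 7, 1.35-fold (1.01 to 1.78), included 1 once sums were TMM-scaled. At day 3 none of the 90 epithelial cells held an SLC15A1 UMI, which allows up to 0.0367 per 10000 and, by the same limit of 3 counts, up to 3.33% of cells with a UMI; cells that expressed the gene without a captured UMI are not limited by it.

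The amino acid carriers followed the same order of ages. SLC6A19 (B0AT1, chromosome 16, 79293940–79310922), the sodium-coupled carrier of neutral amino acids, gave 1.71 (1.64 to 1.79), 2.47 (2.38 to 2.56), 2.92 (2.55 to 3.33) and 5.22 (4.20 to 6.41) per 10000 UMIs of villus-list cells at days 0, 1, 7 and 14. SLC7A9 (b0,+AT, chromosome 6, 42664795–42706113), the exchanger that brings in cystine and cationic amino acids, gave 1.00 (0.943 to 1.06), 1.46 (1.39 to 1.54), 2.23 (1.91 to 2.58) and 3.71 (2.86 to 4.74). SLC3A1 (rBAT, chromosome 3, 96157387–96201057) is the heavy subunit without which SLC7A9 does not reach the membrane, and its levels were 0.200 (0.175 to 0.228), 0.435 (0.397 to 0.476), 0.682 (0.511 to 0.892) and 1.28 (0.799 to 1.93). For all 3 genes each of these ages was above the one before it with an interval of the ratio apart from 1, except that the day 7 to day 1 step of SLC6A19, 1.18-fold (1.03 to 1.36), included 1 with TMM scaling. Of the 10 genes SLC3A1 had the highest day 14 to day 0 ratio, 6.36 (3.91 to 9.87), against 3.71 (2.84 to 4.78) for its partner SLC7A9.

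The ion transporters did not share 1 pattern. SLC26A3 (DRA, chromosome 9, 107480629–107518771), the chloride and bicarbonate exchanger, gave 1.71 (1.63 to 1.78), 2.79 (2.69 to 2.89), 1.65 (1.37 to 1.96) and 4.58 (3.63 to 5.71) per 10000 UMIs of villus-list cells at days 0, 1, 7 and 14. It alternated between ages: day 7 over day 1 was 0.591 (0.492 to 0.706), and day 14 over day 7 was 2.78 (2.07 to 3.71). SLC9A3 (NHE3, chromosome 16, 79625555–79704084), the sodium and proton exchanger that pairs with it, gave 0.391 (0.356 to 0.429), 0.683 (0.635 to 0.734), 1.12 (0.897 to 1.38) and 0.812 (0.444 to 1.36). SLC9A3 was thus highest at day 7, 2.86-fold (2.25 to 3.61) the day 0 level, and days 7 and 14 did not differ beyond their intervals.

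CFTR (chromosome 18, 28627717–28818209) gave 0.372 (0.338 to 0.409), 0.810 (0.757 to 0.864), 0.940 (0.737 to 1.18) and 0.116 (0.0140 to 0.419) per 10000 UMIs of villus-list cells at days 0, 1, 7 and 14. Its day 14 value rested on 2 UMIs in 27 cells, yet the ratio to day 7 was 0.123 (0.0147 to 0.462). Over the same step the other 9 genes had ratios from 0.725 (SLC9A3) to 5.07 (SLC2A2). In all epithelial cells CFTR was at 0.505, 0.762, 0.208, 0.704 and 0.168 per 10000 at days 0, 1, 3, 7 and 14, and no OLFM4-high cell, the class with most CFTR at days 0, 1 and 3, was found at day 14.

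OLFM4 marks the stem and progenitor cells of the crypt base, and the gate's cells were split into OLFM4-low cells (0 or 1 UMI) and OLFM4-high cells (5 or more), leaving 90 cells with 2 to 4 UMIs in neither class. There were 2409 low and 259 high cells at day 0, 884 and 108 at day 1, and 62 and 23 at day 3; day 7 had 4 high cells and later ages none. Among genes listed as a check, 12 of 13 villus genes were higher in OLFM4-low cells (APOA4 log2 6.80, APOA1 6.37; LCT, which passed the filter on low counts through these cells alone, is left out) and 8 of 9 crypt genes lower (SPINK1 −5.35, LGR5 −5.13). Other things moved with the split: median depth was 8606 against 22244 UMIs at day 0, 15404 against 25379 at day 1 and 6504 against 12743 at day 3, and enteroendocrine markers summed to 126 against 4.37, 46.1 against 1.78 and 139 against 0 per 10000. Goblet markers summed to 189 against 60.3, 108 against 50.4 and 285 against 20.6 per 10000, and the mitochondrial share of UMIs was 10.6% against 7.28%, 11.3% against 7.50% and 12.1% against 16.7%. The part of these in the differences below was tested only as far as the repeated fits go.

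Counts were summed per library and class, and the 3 libraries with both classes gave 6 sums. These were fitted with the library as a block by edgeR's quasi-likelihood test with Benjamini-Hochberg adjustment. This left 2 residual degrees of freedom, and fewer where 1 library dropped out. The p-values therefore rest largely on variance pooled over genes, and a smaller one from fewer libraries is not stronger support. All 10 genes passed the filter on low counts, but SLC2A2 and SLC15A1 did so through their OLFM4-low sums alone, which fixed their direction, so their calls carry no weight. Of the other 8 genes, 5 were higher in OLFM4-low cells at an adjusted p under 0.05 (7 with that pair), against 12.6% of the 12283 genes tested, and 1, CFTR, was lower, against 8.97%. Without the genes that passed through 1 class alone, the shares over all genes were 10.8% and 8.91%. DESeq2 called 5 of the 10 higher, SLC15A1 among them, against 9.14% of all genes, and CFTR lower, against 6.01%. The plot of both classes shows the levels behind these calls.

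**Figure D2:**
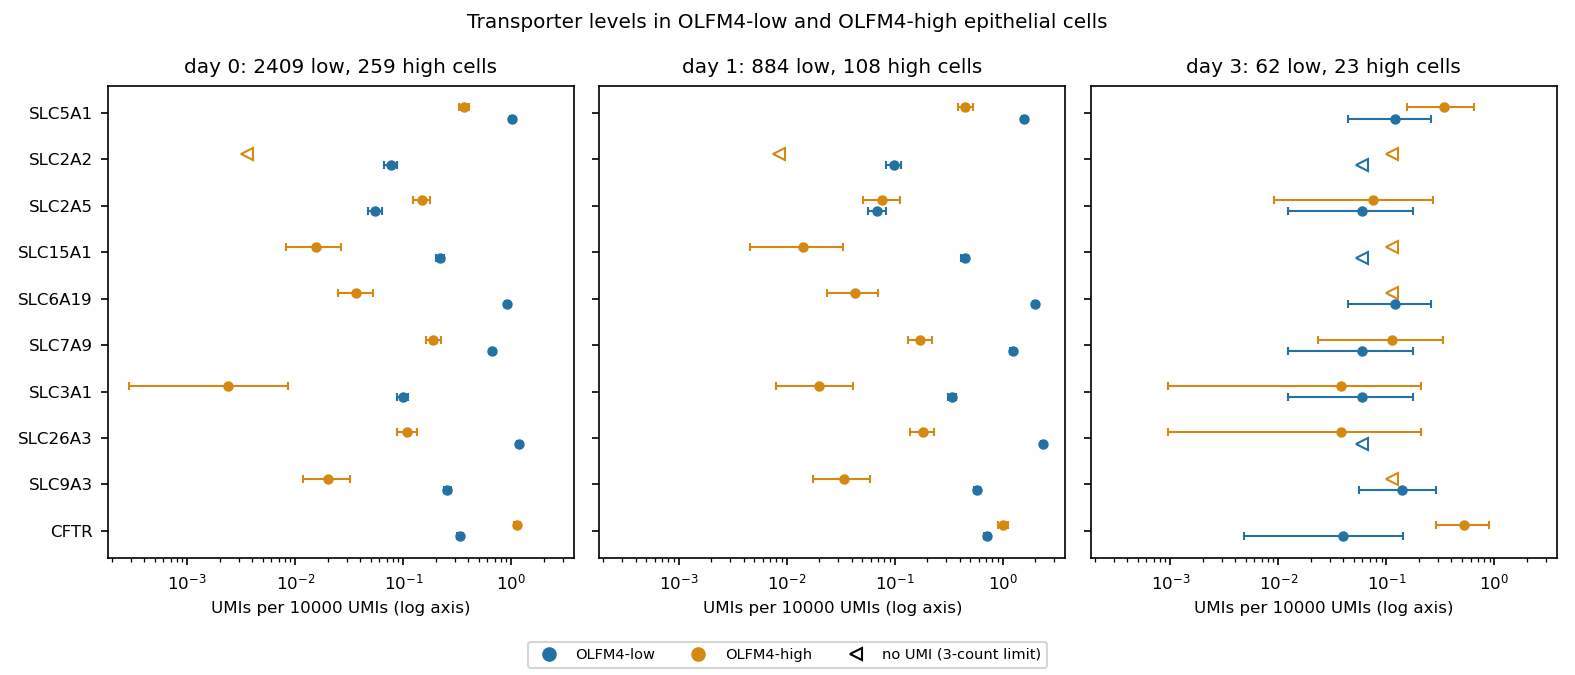
UMIs per 10000 UMIs (log axis) of the 10 genes in OLFM4-low and OLFM4-high epithelial cells of days 0, 1 and 3, with exact 95% Poisson intervals and open triangles for 0 UMIs at the 3-count limit. SLC6A19, SLC15A1, SLC26A3 and SLC9A3 lie far apart at days 0 and 1, CFTR lies on the OLFM4-high side in all 3 libraries, and the day 3 intervals are wide.

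SLC6A19 had the lowest adjusted p of the 10 genes. Its level in OLFM4-low cells was 0.903 at day 0, 1.96 at day 1 and 0.119 at day 3, against 0.0368, 0.0424 and 0 per 10000 in OLFM4-high cells. The low class was higher in 3 of 3 libraries, with a log2 difference of 5.08 ± 0.38 (SE, adjusted p = 6.07e-05, edgeR). Day 3 rested on 6 against 0 UMIs, and the interval of its ratio, from 0.622 upward, included 1. SLC9A3 was at 0.256, 0.576 and 0.139 against 0.0202, 0.0339 and 0 per 10000 (log2 3.92 ± 0.36, adjusted p = 9.02e-05).

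SLC15A1 stood at 0.218 and 0.442 per 10000 in OLFM4-low cells of days 0 and 1 and at 0.0154 and 0.0141 in OLFM4-high cells, with no UMI in either class at day 3. Its ratios were 14.1 (8.21 to 26.7) and 31.3 (13.3 to 96.6), both as a description, since the OLFM4-high sums lay under the filter. SLC26A3 gave 1.17 and 2.34 against 0.109 and 0.181 at days 0 and 1, and at day 3 the only UMI fell in an OLFM4-high cell (log2 3.50 ± 0.45, adjusted p = 0.000512, edgeR). The call of SLC26A3 was lost without the day 0 library (log2 3.37, adjusted p = 0.122). Both separations are therefore those of days 0 and 1.

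SLC3A1 and SLC7A9 differed in how far their classes lay apart. SLC3A1 had 2 and 7 UMIs in the OLFM4-high cells of days 0 and 1 (0.00238 and 0.0198 per 10000) against 300 and 530 in OLFM4-low cells (0.0983 and 0.338), while at day 3 it was at 0.0597 in the low and 0.0377 in the high class (log2 4.34 ± 0.53, adjusted p = 0.000371, edgeR). Without the day 0 library its call was lost (log2 3.70, adjusted p = 0.0793, edgeR). SLC7A9 was at 0.190, 0.172 and 0.113 per 10000 in OLFM4-high cells against 0.659, 1.23 and 0.0597 in OLFM4-low cells (log2 2.14 ± 0.43, adjusted p = 0.00584, edgeR). At day 0 its OLFM4-high level was 0.816-fold (0.561 to 1.22) that of barcodes with at most 100 UMIs. At day 1 it was 0.485-fold (0.356 to 0.655). SLC6A19 in the same cells was at 0.0368 and 0.0424 per 10000, further below its level in such barcodes. The part of RNA free in the libraries was not tested. The order of the classes held for SLC7A9 at days 0 and 1 and was the other way round at day 3, from 3 UMIs in each class. Its call was lost without the day 1 library (log2 1.44, adjusted p = 0.0515), without the day 0 library (log2 2.14, 0.24) and with DESeq2 (log2 1.77, 0.0655).

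Of the sugar carriers, SLC2A2 had 233 and 154 UMIs in OLFM4-low cells of days 0 and 1 and no UMI in OLFM4-high cells, which made it at least 21.4-fold and at least 11.6-fold higher against the 3-count limit of each high sum; the lower ends of the exact intervals were 17.3 and 9.31. SLC5A1 gave 1.01, 1.57 and 0.119 per 10000 in OLFM4-low cells and 0.366, 0.450 and 0.339 in OLFM4-high cells, with a log2 difference of 1.21 ± 0.47 and an adjusted p of 0.0971 (edgeR), and so it was not called. Without the day 3 library, whose low class held 6 UMIs of SLC5A1 and 1 villus-list cell, its adjusted p was 0.000322. SLC2A5 was not called either: its level was 0.0551, 0.0683 and 0.0597 in OLFM4-low and 0.148, 0.0763 and 0.0754 in OLFM4-high cells (log2 −0.81 ± 0.38, adjusted p = 0.157, edgeR).

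CFTR was the member on the other side. OLFM4-high cells gave 1.12 (1.05 to 1.20), 1.00 (0.902 to 1.11) and 0.528 (0.288 to 0.885) per 10000 at days 0, 1 and 3, and OLFM4-low cells 0.336, 0.713 and 0.0398. The high class was above the low class in 3 of 3 libraries, 3.35-fold at day 0 and 1.41-fold at day 1, and the log2 difference was −1.42 ± 0.42 (adjusted p = 0.0353, edgeR; 0.0384, DESeq2). The call was lost without the day 0 library, where the log2 difference was −1.44 and the adjusted p 0.369. Of all genes 175 were called there. SLC2A2 and SLC15A1 no longer passed the filter, and SLC6A19, SLC3A1 and SLC9A3 passed it through their OLFM4-low sums alone. Of the 5 other genes 0 were called by edgeR, and 2, SLC7A9 and SLC26A3, had an unadjusted p under 0.05. Without the day 1 library, CFTR stayed lower and SLC6A19, SLC3A1 and SLC26A3 higher. SLC2A2 and SLC15A1 were not tested there, and SLC9A3 passed the filter through its OLFM4-low sums alone. The CFTR adjusted p of 2.79e-05 (edgeR) came from fewer libraries and is not read as stronger than 0.0353. Against villus-list cells alone in place of all OLFM4-low cells, which left out day 3 for its 1 cell, CFTR had a log2 difference of −0.78 and an adjusted p of 0.0658, against −1.09 and 0.0162 without the day 3 library alone.

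The fit was repeated with the makeup of the classes held closer and, separately, with every cell thinned to the same depth. Without cells over the enteroendocrine or goblet limit, day 3 had 18 OLFM4-low cells, under the minimum of 20, and also dropped out. SLC5A1 was then higher (adjusted p = 1.37e-10, edgeR), as it was without day 3 alone, and CFTR stayed lower (0.0126). These values also came from fewer libraries. With every cell thinned to 1000 UMIs only 4 of the 10 genes passed the filter, SLC6A19 and SLC26A3 through their OLFM4-low sums alone. Of the other pair, SLC5A1 was higher (log2 1.22, adjusted p = 0.0492, edgeR) and CFTR lower (log2 −1.43, 0.0272). The classes were still set by the unthinned OLFM4 UMIs, so the part of depth in the split itself was not tested.

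Other genes of epithelial transport, taken from lists written with earlier results of these data known, gave a wider view of the same split. Of 60 other transporters and channels tested, 30 were higher in OLFM4-low cells, 7 lower and 23 not called, beside 12.6% of all genes higher and 8.97% lower; their median log2 difference was 1.10 and that of all genes 0.04. Of the 30, the nucleoside carrier SLC28A1, the exporter ABCG2 and SCNN1A, a subunit of the epithelial sodium channel, passed the filter through their OLFM4-low sums alone, which fixed their direction and leaves 27 of 56. Among these 27 were the manganese exporter SLC30A10 (3.80), the anion exchanger SLC26A6 (3.54) and the inositol carrier SLC5A11 (3.47). Among the 7 lower genes, SLC12A2 (NKCC1), which loads chloride across the basolateral side, had a log2 difference of −2.19 ± 0.33, and the potassium channel genes KCNE3, KCNQ1 and KCNN4 had −2.44, −1.64 and −1.47. SLC12A2 was at 1.11 against 6.60 per 10000 at day 0, 1.13 against 6.92 at day 1 and 2.21 against 4.71 at day 3, low class first. The other 3 were the monocarboxylate carrier SLC5A8 (−3.40), the amino acid carrier SLC6A14 (−2.11) and the nucleoside carrier SLC29A1 (−1.03).

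Partners and anchors of the 10 genes were called higher in OLFM4-low cells in 7 of 17 cases and lower in none, beside the same 12.6% and 8.97% of all genes. Among the 7 were the scaffold genes PDZK1 (3.15), whose product binds several of these transporters, and PDZD3 (3.01), the kinase SGK1 (2.13), and the guanylin genes GUCA2A (1.60) and GUCA2B (2.23). Of 21 regulators, 8 were higher and 2 lower against the same shares of all genes. MAF passed the filter through OLFM4-low cells alone, which leaves 7 of 20. The higher ones included CREB3L3 (4.85) and the bile acid receptor NR1H4 (3.18), and ASCL2 (−4.59) and SOX9 (−2.25) were lower; HNF4A, a general regulator of enterocyte genes, was not called (−0.68 ± 0.26, adjusted p = 0.093, edgeR).

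Within OLFM4-low cells below the secretory limits, the 10 genes were followed along the villus-list share in bins set after the data had been seen: under 20, 20 to 100, 100 to 300 and over 300 per 10000 UMIs. At day 0 these bins held 150, 558, 550 and 94 cells and at day 1 they held 32, 118, 366 and 171. SLC6A19 went from 0.0282 to 0.530, 1.59 and 2.97 per 10000 at day 0 and from 0.0769 to 0.557, 2.23 and 3.08 at day 1. SLC15A1 was at 0.0141, 0.119, 0.302 and 0.859 and then at 0, 0.138, 0.404 and 0.867, and SLC2A2, SLC3A1, SLC7A9 and SLC9A3 also had their highest value in the top bin of both days. The top-bin levels of SLC6A19 and SLC15A1 on both days lay within the intervals of all villus-list cells at day 7. The part of the list share in the order of ages was not tested.

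SLC26A3 and SLC5A1 were placed differently along this range. SLC26A3 was highest in the 100 to 300 bin, at 1.76 against 1.20 in the top bin of day 0 and 2.90 against 2.49 at day 1. SLC5A1 at day 0 stood at 0.289, 1.11, 1.27 and 4.0 (3.62 to 4.41), while at day 1 its upper 3 bins were level, at 1.71, 1.80 and 1.67 (1.53 to 1.82). In the top bin SLC5A1 was therefore lower at day 1 than at day 0 with intervals apart, although over all villus-list cells day 1 over day 0 was 1.16-fold (1.09 to 1.24; the interval included 1 with TMM scaling). CFTR ran from 0.607 in the lowest bin to 0.336 in the top bin at day 0 and from 0.577 to 0.777 at day 1, and SLC2A5 was at or below 0.0867 in every bin of both days.

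**Figure D3:**
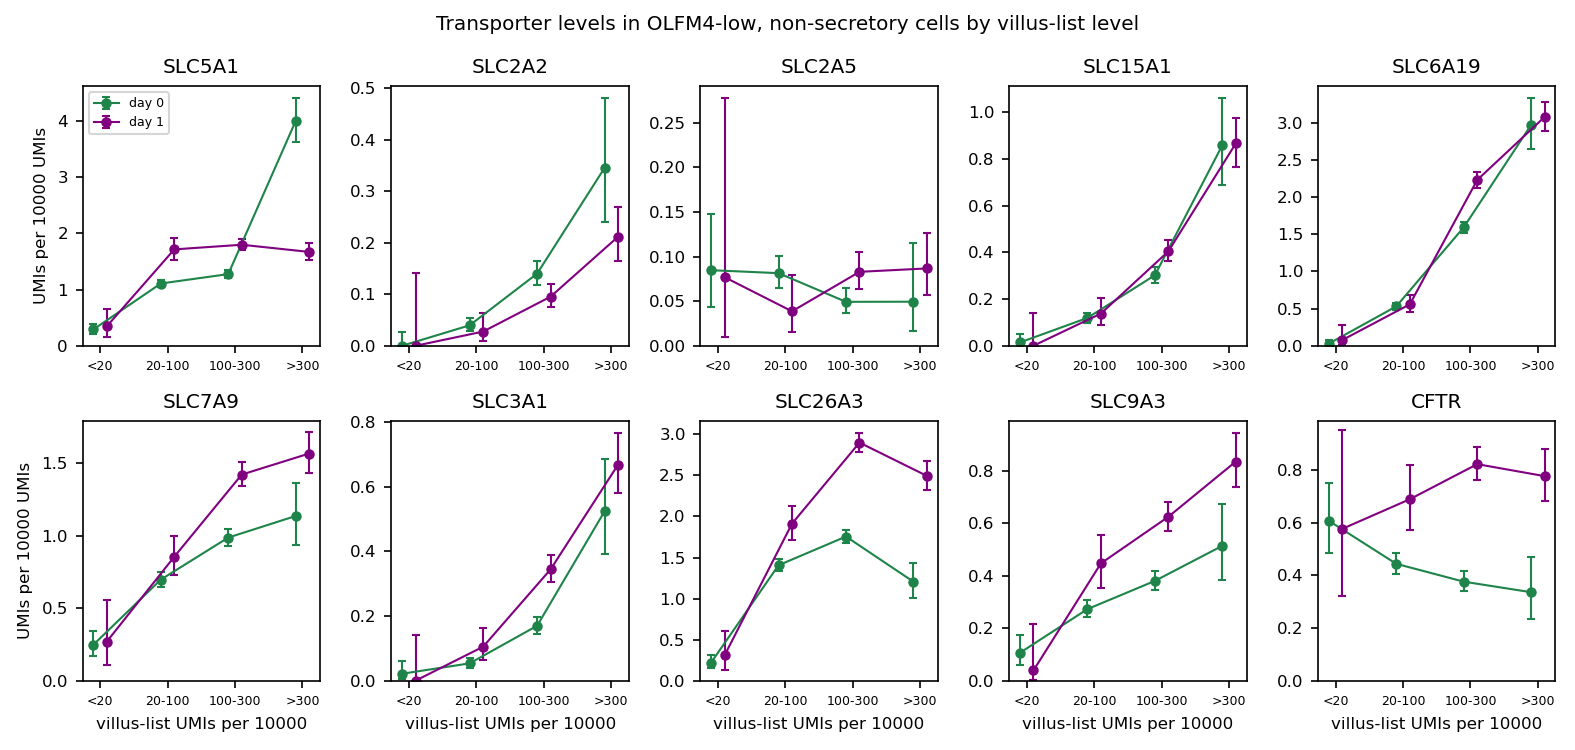
UMIs per 10000 UMIs of the 10 genes in OLFM4-low cells below the secretory limits, in 4 bins of the villus-list share (x axis, per 10000 UMIs), for days 0 and 1, with exact 95% Poisson intervals and a vertical scale that differs between genes. SLC6A19, SLC15A1 and SLC3A1 climb through all bins, SLC26A3 peaks in the third bin, and SLC5A1 differs between days 0 and 1 in the top bin.

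Secretory cells were read against the RNA free in each library, measured in barcodes with at most 100 UMIs. There the 10 genes summed to 2.03 and 2.79 per 10000 at days 0 and 1 and to 0.0265 to 0.228 at later ages. Part of a low level in a cell of days 0 and 1 can therefore be background. Such barcodes give the level of free RNA alone, not the amount of it in a cell. B, T and myeloid cells held 0.132, 0.118 and 0.113 per 10000 of the 10 genes at day 0. At day 1 they held 0.108, 0.0871 and 0.0928. A level below that of the low barcodes is therefore not shown to be background, and the part of free RNA in the secretory cells was not tested. Goblet-gated cells (465 at day 0) gave 0.208 per 10000 of SLC6A19 and 0.151 of SLC26A3, below the 0.473 and 0.466 of such barcodes. At day 1 the 100 goblet-gated cells were above them, 1.94-fold (1.59 to 2.37) for SLC6A19 and 1.69-fold (1.40 to 2.03) for SLC26A3. The villus-list sum of the goblet-gated cells was 24.3 per 10000 at day 0 and 96.7 at day 1, with medians over cells of 4.03 and 10.96. At day 1 the sum thus lay far above the median, and the deepest cell held 67424 UMIs against a median of 12531. The day 1 ratios are of pooled UMIs and do not describe the typical goblet-gated cell. The part of a few deep cells in them was not tested. Enteroendocrine-gated cells (584 and 97 at days 0 and 1) gave 0.459 of SLC6A19 at day 0, 0.971-fold (0.720 to 1.32) the free RNA, and were at 1.71-fold (1.25 to 2.29) at day 1. Of SLC15A1 the enteroendocrine-gated cells held 0.396 (0.326 to 0.476) at day 0 and 0.597 (0.424 to 0.816) at day 1, which was 6.42-fold (3.27 to 14.4) and 4.45-fold (2.91 to 6.74) the free RNA. These levels were near those of villus-list cells, with ratios of 1.13 (0.908 to 1.39) and 1.12 (0.786 to 1.54). The villus-list sum of the enteroendocrine-gated cells was 30.0 and 70.2 per 10000, with medians over cells of 16.6 and 22.5. At day 1 the deepest enteroendocrine-gated cell held 76815 of the 653723 UMIs of the class, against a median of 4862. The day 1 levels are of pooled UMIs and do not describe the typical cell. The part of this cell or of the villus-list genes in the enteroendocrine levels was not tested. The plot of cell classes sets all genes side by side.

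**Figure D4:**
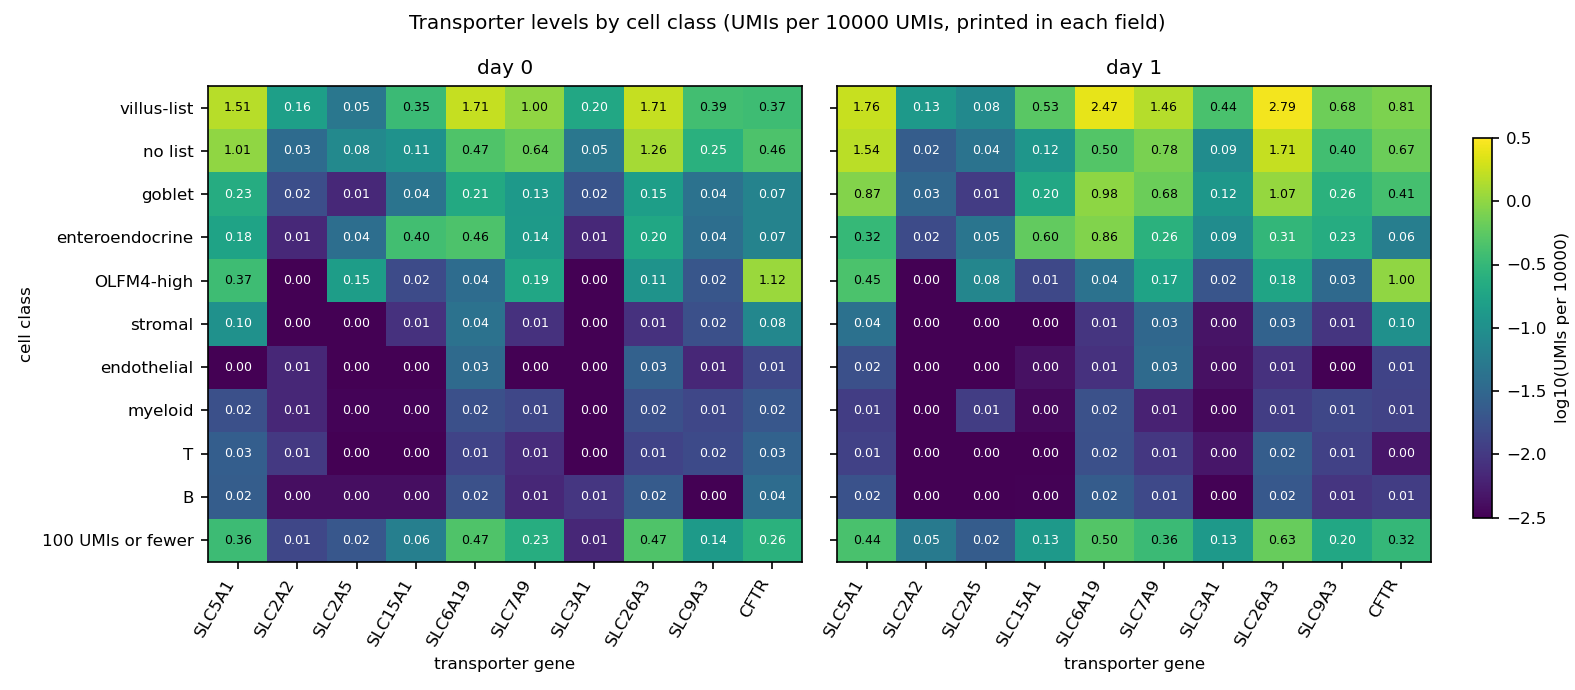
Heat map of UMIs per 10000 UMIs (printed in each field, colour on a log10 scale) of the 10 genes in the cell classes of days 0 and 1 and in barcodes with at most 100 UMIs; "no list" holds OLFM4-low epithelial cells below all 3 limits. For SLC15A1 the enteroendocrine-gated cells lie beside the villus-list cells, at 0.396 against 0.351 per 10000 at day 0, while for SLC6A19 they lie at 0.459 against 0.473 of the low barcodes at day 0 and at 0.857 against 0.502 at day 1.

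Enteroendocrine cells were then grouped by the hormone genes they carried, with a limit of 20 per 10000 UMIs chosen after the data had been seen; a cell may carry several. At day 0, SLC15A1 stood at 1.33 (0.977 to 1.77) per 10000 in 51 cells with glucagon (GCG), 0.872 (0.703 to 1.07) in 167 with peptide YY (PYY), 0.833 (0.534 to 1.24) in 41 with cholecystokinin (CCK) and 0.680 (0.530 to 0.859) in 152 with neurotensin (NTS). In 41 cells with somatostatin (SST) it was 0.153 (0.0315 to 0.446), and in 53 cells with TPH1, which makes serotonin, there was no UMI, a limit of 0.147 per 10000. At day 1 the levels were 1.33, 1.37, 0.994 and 1.16 in cells with PYY, GCG, CCK and NTS, 0.265 with SST and 0.128 with TPH1.

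The 4 peptides whose cells had the high levels were then pooled, a grouping chosen from those values, so the SLC15A1 ratios restate them and are no test. The 197 cells of day 0 with any of the 4 peptides held 109 SLC15A1 UMIs, and the 387 without held 4, a ratio of 33.2 (12.6 to 124). At day 1, with 26 and 71 cells, the ratio was 6.32 (2.74 to 17.0). The same split gave 4.32 (2.17 to 9.36) for SLC5A1, 3.66 (1.96 to 7.25) for SLC26A3, 2.33 (1.61 to 3.42) for SLC6A19 and 0.542 (0.250 to 1.11) for SLC7A9 at day 0. At day 1 it gave 1.84 (0.713 to 4.95), 3.23 (1.16 to 10.2), 2.92 (1.63 to 5.43) and 2.53 (0.859 to 8.35) for the same genes, so that SLC5A1 included 1 and SLC7A9 lay on the other side of it. SLC9A3 gave 5.53 (1.49 to 30.5) at day 1, near the 6.32 of SLC15A1, and 2.13 (0.542 to 9.94) at day 0. The peptide cells of day 0 were deeper (median 5466 against 3711 UMIs). Their villus-list sum was 37.0 against 24.2 per 10000, far below the class limit of 100. At day 1 the medians were 6906.5 against 4370 UMIs, and all enteroendocrine-gated cells together had a villus-list sum of 70.2. The part of depth, of the deepest day 1 cell (76815 UMIs) or of the villus-list genes in the ratios of this split was not tested.

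**Figure D5:**
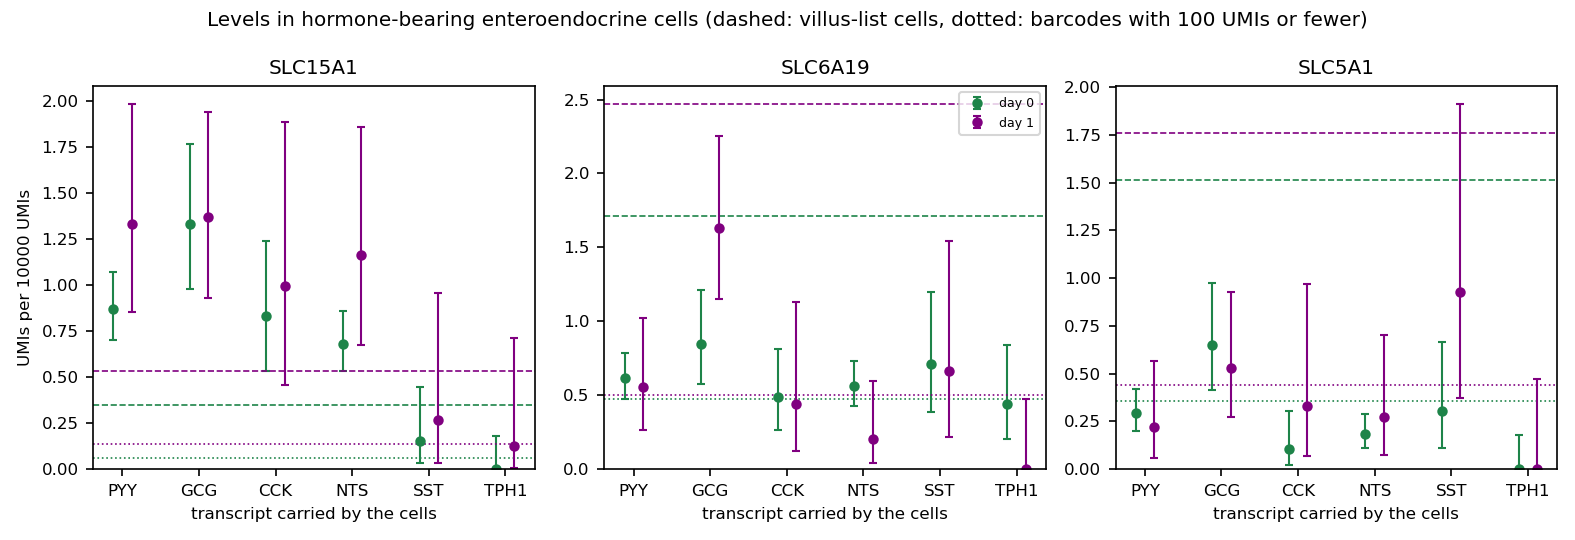
UMIs per 10000 UMIs of SLC15A1, SLC6A19 and SLC5A1 in enteroendocrine-gated cells of day 0 and day 1 that carry each hormone gene, with exact 95% Poisson intervals; dashed lines are villus-list cells and dotted lines barcodes with at most 100 UMIs. SLC15A1 is high in the GCG, PYY, CCK and NTS cells and low or without a UMI in the SST and TPH1 cells of day 0.

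Outside the epithelium the levels of the 10 genes were low, but where epithelial cells were few, other cells held much of their RNA. Epithelial cells held 73.7% to 88.7% of each gene's UMIs over all cells of day 0 and 69.2% to 86.8% at day 1, and in B cells the 10 genes summed to 0.0114 to 0.132 per 10000 over the 6 libraries. At day 3 epithelial cells held 13.6% of the UMIs of CFTR and 37.2% of SLC5A1, at day 7 13.5% of SLC2A5 and 65.0% to 79.4% of the other 9 genes, and at day 21 none. The values of SLC2A5 in B cells and CFTR in stromal cells were picked out after they had been seen. SLC2A5 was at 0.0284 (0.0249 to 0.0322) per 10000 in B cells of day 14, from 240 UMIs in 219 of 14303 cells, against 0.00227 to 0.00405 at days 0 to 7 and 0.00819 at day 21; the low barcodes of day 14 were at 0.0264. CFTR was at 0.0771, 0.101 and 0.222 per 10000 in stromal cells of days 0, 1 and 3, against 0.0364, 0.0112 and 0.00310 in B cells. These came from 9, 22 and 31 UMIs in 9, 15 and 16 cells; the stromal gate itself allowed at most 1 UMI of EPCAM, KRT8 and VIL1 in a cell. At days 0 and 1 the stromal level was 0.296-fold (0.126 to 0.624) and 0.317-fold (0.193 to 0.498) that of the low barcodes. At day 3 the low barcodes were at 0.0208, from 4 UMIs. The part of free RNA in the stromal levels was not tested.

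Partners were also compared cell by cell in OLFM4-low cells thinned to 1000 UMIs, as a description. For the exchanger pair, SLC7A9 was found in 0 of 21 cells with SLC3A1 at day 0 and 1 of 25 at day 1, too few to compare; without thinning the shares were 76.5% against 30.1% and 87.2% against 44.0%, in cells of unequal depth. BEST4, which marks a rare CFTR-rich cell of the human small intestine, was found with CFTR in 1 of 62 cells at day 0 and 1 of 60 at day 1, also too few to compare.

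The genes most like each member were those with the highest Pearson r of log2 levels over the 6 sums of the fit, among 8459 or 8460 genes. These points share libraries and classes, so the values describe only this set. SLC6A19 was closest to ENTPD8 (r = 0.999), SLC15A1 to CLCA2, SLC3A1 to CYP3A46, SLC7A9 to SEPHS2 and SLC26A3 to GYG1. SLC5A1 was closest to BHLHE40, SLC9A3 to PARM1, SLC2A5 to LRP1 and SLC2A2 to RAB42. The match of SLC2A2 rests on levels near the floor. It was at 0.0764 and 0.0983 per 10000 in OLFM4-low cells of days 0 and 1 and at 0 in the other sums, all under the added 0.1. SLC15A1 was also under 0.1 in OLFM4-high cells of days 0 and 1 and at 0 in both classes of day 3. The closest gene to CFTR was MRPL37 (r = 0.977).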

How the data were processed

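The deposited values are whole-number UMI counts, not normalized, which the authors made with Cell Ranger 3.1.0 and STAR on susScr11 (submitters' processing notes), without filtering to cells. The labels put each library in its age group. The sample labels and methods name the ileum, which is used here, but the design text of the series names the cecum; the labels name a V3 kit and the methods an earlier version. Members and gene lists were chosen with earlier results of these data known. All 10 members were named, with values for at most 6 genes of largest change per list and direction, and for each member the closest of 3 most similar genes.

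Barcodes with at least 1000 UMIs and 500 genes were kept. No doublet caller was run, and the PTPRC limit was the only guard against mixed barcodes; leaving out cells over 50000 UMIs was tried as an alternative. Other cell classes needed 5 UMIs of their markers, more than of any other list, and at most 1 UMI of the epithelial gate. Enteroendocrine-gated and goblet-gated cells had at least 100 and 200 per 10000 UMIs of their lists, limits set after the data had been seen. Summed counts were tested with edgeR 4.0.16 (R 4.3.3; TMM, filterByExpr, quasi-likelihood) in a model of library plus class, with DESeq2 1.42.0 as an alternative; the single-cell tests of the study were not followed, since cells of 1 library are not replicates. Intervals used scipy 1.17.1. Gene positions came from RefSeq (Sscrofa11.1). On counts simulated for 11900 genes of this comparison, 68 of 100 genes changed 4-fold and 4 of 100 changed 2-fold were recovered, with 2 false calls. Other alternatives were normalization, filter, class size, gate, mitochondrial share, other lineages, secretory cells, thinning, averaging, scaling and leaving out each library.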

Additional observations from a re-analysis of the deposited data

Results flagged for a closer look

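Among the genes with at least 3 UMIs in both classes, the OLFM4 split of 2 ran the other way at day 3 than at days 0 and 1. SLC26A3, with 1 UMI at day 3 in an OLFM4-high cell, was below that number. SLC5A1 in OLFM4-low over OLFM4-high cells was 0.352 (0.103 to 1.11) at day 3, from 6 and 9 UMIs, against 2.76 (2.46 to 3.12) at day 0 and 3.48 (2.97 to 4.12) at day 1. SLC7A9 gave 0.528 (0.0711 to 3.94) at day 3, from 3 UMIs in each class, against 3.47 and 7.12. Both day 3 intervals include 1, and the difference between ages was not tested. The day 3 OLFM4-low class held 62 cells, 1 of them a villus-list cell, and its enteroendocrine and goblet markers summed to 139 and 285 per 10000 UMIs; their part in the ratios was not tested.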

How the results depend on the processing

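The count of genes higher in OLFM4-low cells (7) was 5 with DESeq2, 3 with thinned cells and 2 to 8 when 1 library was left out (2 without day 0, 4 without day 1). Leaving out, in each setting, genes whose direction the filter fixed, it was 5 of 8, 4 of 8 with DESeq2, 1 of 2 with thinned cells, 0 of 5 without day 0 (edgeR; 2 at an unadjusted p under 0.05), 3 of 7 without day 1 and 7 of 9 without day 3. The count lower (1, CFTR) was 0 to 1 when 1 library was left out, 0 with villus-list cells as the low class and 2 when cells held at most 1 UMI of other lineages, SLC2A5 then joining CFTR (adjusted p = 0.0182, edgeR). All genes called numbered 2649, against 175 without day 0, 1053 without day 1, 713 of 3140 with thinned cells, 4111 under 25% mitochondrial UMIs, 4383 without secretory cells by share of UMIs and 4655 with villus-list cells. The last 3 settings, and that on other lineages, left a day 3 class under 20 cells and so also lost day 3; without day 3 alone 3877 genes were called. Of the single-gene calls under alternatives, 141 stayed on their side of the threshold, 8 were lost and 11 gained. These are not independent checks. A minimum of 10 cells per class gave the main fit again, and a minimum of 50 cells gave the fit without day 3. Genes whose direction the filter fixed are among the 141, and genes not tested in a setting are left out. The log2 day 7 to day 0 ratio of the 10-gene sum, 1.28 (1.19 to 1.36), was 1.11 with a gate of 3 UMIs, 1.37 under 25% mitochondrial UMIs, 1.11 without secretory cells by share of UMIs, 1.13 in OLFM4-low cells, 0.98 in villus-list cells and 0.97 with TMM scaling. SLC26A3 turned from 0.29 to -0.051 in villus-list cells and to -0.016 with TMM scaling. SLC2A2 and SLC2A5 lay on both sides of 0 across settings, and the other 7 genes kept their direction under the alternatives run. The cause of these differences was not tested. No paired analysis was possible because each age had 1 library with no replicate number in the labels; both OLFM4 classes of a library were blocked by library. At days 3 and 14 the 90 and 28 epithelial cells set the limits.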
